A study of Mus musculus with 9 samples.

Results

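Branched-chain amino acid and ketone catabolism was described here as 31 named genes, found by gene name in both deposited tables of 55421 genes. Leucine, isoleucine and valine are broken down mainly inside mitochondria. A transaminase first removes their nitrogen, the branched-chain keto acid dehydrogenase complex (BCKDH) then commits the carbon chains to oxidation, and a separate branch for each amino acid leads to acetyl-CoA, acetoacetate or propionyl-CoA. Ketone bodies are made in the liver and burned in muscle, heart and brain, where Bdh1, Oxct1 and Acat1 turn 3-hydroxybutyrate into acetyl-CoA. Enzymes of lysine, GABA and aldehyde oxidation that lie beside these routes were included, so the genes were read in 8 roles.

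The cells were C2C12 myotubes, muscle fibres formed in culture from a mouse myoblast line after 4 days in 2% horse serum. All cultures were exposed for 4 h to an adenovirus at a multiplicity of infection of 3 and harvested at 48 h. The control virus carried LacZ, a bacterial enzyme. The second virus carried HA-Flag-tagged full-length PGC-1α (FL), a transcriptional coactivator of mitochondrial genes, and the third carried a form lacking the C-terminal domain (dCTD), for which the labels do not state the tag separately. Each group had 3 libraries of polyadenylated RNA, described as biological replicates, all from 1 cell line whose cultures keep their own PGC-1α gene. What set the replicates apart (passage, dish or day) is not given, so p-values measure the spread between these libraries. Total reads assigned to genes ran from 87090490 to 123446198 per library. Levels are normalized counts of all 9 libraries on 1 shared scale, although the deposited tables had been normalized separately, and fold changes are log2 differences on the scale log2(normalized count + 1) ± the standard error that limma gives for groups of 3.

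Ppargc1a, the gene for PGC-1α, was between 383 and 408 normalized counts with LacZ, between 198071 and 227297 with FL and between 100543 and 121631 with dCTD. FL exceeded dCTD by 0.91 ± 0.07 (log2, adjusted p = 2e-06). These counts do not separate the transgene from the cells' own gene and were not corrected for the length of either insert. Loss of the domain and a possibly lower transgene transcript therefore cannot be told apart in any difference between the forms. Myotube markers were abundant in every library. Their sum over 8 genes was 818004 to 858660 with LacZ, 416461 to 424519 under FL and 499506 to 518579 under dCTD. All 8 fell with FL and 6 fell with dCTD, whereas 6 and 3 of 8 myoblast or reserve cell markers rose. Of all tested genes, 30.9% rose and 28.3% fell with FL and 23.1% rose and 21.7% fell with dCTD, so the 3 myoblast markers with dCTD are near that background. The myoblast sum was 32458 to 35091 with LacZ, 41096 to 44582 under FL and 39632 to 41077 under dCTD. The sum of 6 fibroblast markers was 24315 to 26103, 21948 to 23588 and 23219 to 24777 in the same order, with 1 marker up and 1 down with FL and 2 up with dCTD. Hepatocyte markers summed to at most 2.68 in any library, with Serpina1a at 0 in all of them. The 6 adipocyte markers summed to at most 4.77 with LacZ, 420 with FL and 13.5 with dCTD, with Cfd at 0 throughout and nearly all of the FL sum from Cidec, a lipid droplet gene. In bulk RNA, fewer cells of a type and less RNA per cell cannot be told apart, and the part of these shifts in the results below was not tested.

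Most of the catabolic genes were higher with either form of PGC-1α than with LacZ. Of 30 genes that could be tested, 19 rose and 1 fell with FL, against 30.9% and 28.3% of all tested genes that rose and fell. With dCTD 24 rose and 1 fell, against 23.1% and 21.7% of all tested genes. The median log2 fold change of the 30 genes was 0.27 with FL and 0.29 with dCTD, and that of all tested genes was -0.01 in both. The 2 comparisons share their LacZ libraries, so their values are set side by side and are not independent of each other. Aass, the enzyme that starts lysine breakdown, was the gene not tested. It had 1 read in 1 FL library and 0 in the others.

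**Figure D1:**
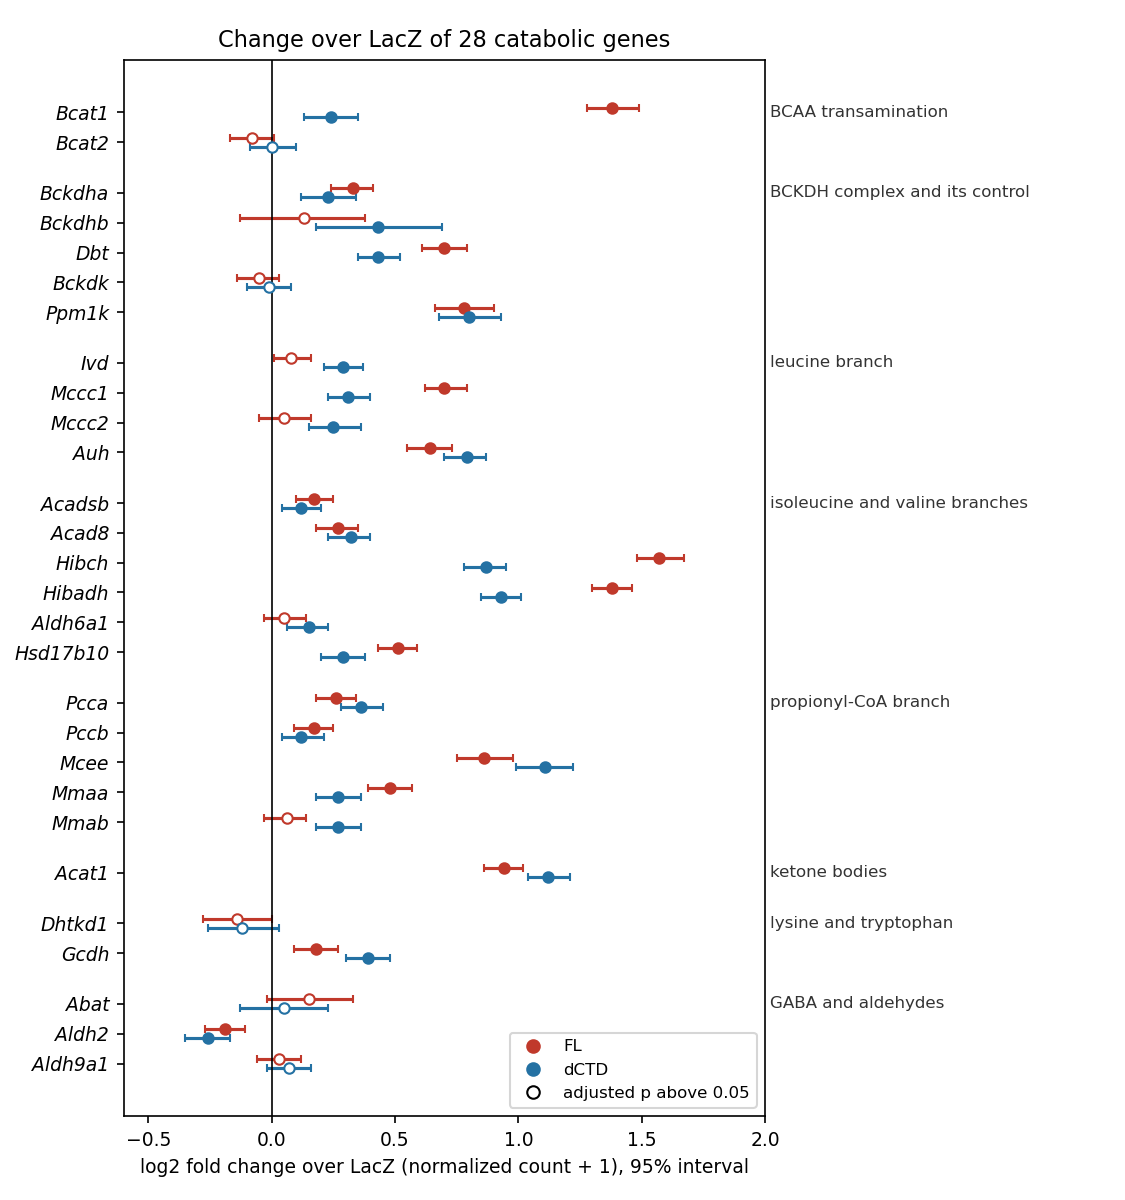
Log2 fold change over LacZ (x axis, on normalized count + 1) of 28 genes in order of role, with 95% intervals for groups of 3. Bdh1 and Oxct1 lie beyond the axis, and Aass was not tested. Filled points passed an adjusted p of 0.05. Bcat1, Hibch and Hibadh are farthest right with FL, and Aldh2 is the gene with filled points left of 0.

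The 3 genes of ketone body use rose with both forms, where 30.9% of all tested genes rose with FL and 23.1% with dCTD. Of the 3, 2 had the largest changes of the 30 tested catabolic genes. Bdh1 encodes the mitochondrial dehydrogenase that oxidizes 3-hydroxybutyrate to acetoacetate (ENSMUSG00000046598, chromosome 16, 31422280 to 31458901 in mm10). Its normalized counts were 165, 138 and 190 with LacZ, 14074, 12416 and 13313 with FL, and 3637, 3853 and 3926 with dCTD. The 3 groups were fully separate, with LacZ lowest and FL highest. The log2 fold change was 6.34 ± 0.12 with FL (80.9-fold, adjusted p = 3.4e-09) and 4.53 ± 0.09 with dCTD (23.1-fold, adjusted p = 7.8e-18). FL was above dCTD by 1.80 ± 0.04 (3.48-fold, adjusted p = 2.6e-23). Of the exon bases of Bdh1, 533 of 3888 are shared with the antisense gene Gm15743, whose mean was 0.918 with LacZ, 251 with FL and 62 with dCTD.

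Oxct1, the succinyl-CoA transferase that activates acetoacetate and is the committed step of ketone use, was already abundant with LacZ (ENSMUSG00000022186, chromosome 15, 4026383 to 4155344). It stood at 22536, 22573 and 23716 with LacZ, 121752, 111129 and 114868 with FL, and 58064, 61051 and 62029 with dCTD. No library of 1 group reached into another. The fold change was 5.05 with FL (2.34 ± 0.04 in log2, adjusted p = 5.6e-29) and 2.62 with dCTD (1.39 ± 0.04, adjusted p = 5.9e-19), and FL was 1.92-fold above dCTD (adjusted p = 3.8e-18). Of the exon bases of Oxct1, 467 of 3701 are shared with BC037032 on the opposite strand, whose mean was 115 with LacZ, 158 with FL and 154 with dCTD. Acat1, the thiolase that splits acetoacetyl-CoA and also closes the isoleucine branch, had another order. Its counts were 5710, 5939 and 6155 with LacZ, 11557, 11027 and 11531 with FL, and 12426, 13120 and 13490 with dCTD. The dCTD libraries were the highest here, by 0.19 in log2 (FL against dCTD -0.19 ± 0.04, adjusted p = 8.4e-05).

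**Figure D2:**
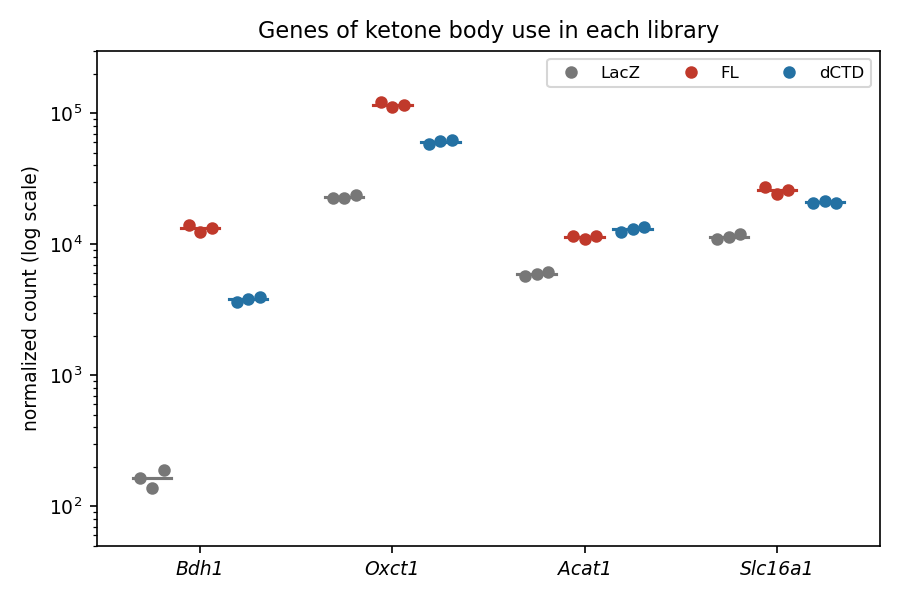
Normalized counts (y axis, log scale) of Bdh1, Oxct1, Acat1 and the transporter gene Slc16a1 in each library, with a line at the mean of 3. Bdh1 goes from 138 to 190 with LacZ to 12416 to 14074 with FL, and Acat1 is the gene whose dCTD points lie above the FL points.

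Promoter sequences, from 250 bases before to 50 bases after a RefSeq start in GRCm38.p6, are shown for the 2 genes with the largest rises, so that the stretch next to their start can be read. They were searched on both strands for the ERR response element TNAAGGTCA, for the nuclear receptor core motif AGGTCA, which lies within the former, and for the NRF1 motif. Neither stretch holds any of these letters, so no base is in capitals. Bdh1 also has a second RefSeq start at chr16:31428503-31428802, not shown.
Bdh1, chr16:31422047-31422346, plus strand: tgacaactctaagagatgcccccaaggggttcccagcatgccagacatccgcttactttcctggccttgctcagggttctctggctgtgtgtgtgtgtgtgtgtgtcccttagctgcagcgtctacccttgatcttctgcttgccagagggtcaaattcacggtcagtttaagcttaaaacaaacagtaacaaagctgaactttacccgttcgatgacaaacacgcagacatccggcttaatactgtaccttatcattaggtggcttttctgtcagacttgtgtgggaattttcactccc
Oxct1, chr15:4026178-4026477, plus strand: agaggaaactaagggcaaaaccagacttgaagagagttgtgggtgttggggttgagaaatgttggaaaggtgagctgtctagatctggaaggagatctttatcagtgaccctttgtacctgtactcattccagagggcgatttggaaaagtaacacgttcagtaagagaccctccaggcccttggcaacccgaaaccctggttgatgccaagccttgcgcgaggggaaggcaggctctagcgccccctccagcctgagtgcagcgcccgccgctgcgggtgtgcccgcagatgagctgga

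Of the 31 genes, 27 matched a promoter entry. The ERR response element was in 0 of the 27 (0%), against 1.43% of 27025 genes with an entry. So few promoters cannot set 0 matches apart from that share, and no motif share was tested. The core motif was in 7 (25.9%, against 4900 of the 27025 genes): Aass, Aldh6a1, Bcat1, Bckdhb, Hibadh, Pcca and Ppm1k. The NRF1 motif was in 3 (11.1%, against 5.19%): Hibadh, Mmaa and Pccb. A match describes the letters and shows no binding, and elements outside these windows were not searched.

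The entry step of branched-chain amino acid breakdown is catalysed by a pair of aminotransferases, the cytosolic Bcat1 and the mitochondrial Bcat2, the form typical of muscle. Bcat1 (ENSMUSG00000030268, chromosome 6, 144993835 to 145076184) stood at 1829, 1614 and 1768 with LacZ, 4845, 4364 and 4394 with FL, and 2064, 1969 and 2143 with dCTD. All FL libraries were far above the rest, and the dCTD libraries were just above those with LacZ. The log2 fold change was 1.38 ± 0.05 with FL (adjusted p = 1.7e-19) and 0.24 ± 0.05 with dCTD (adjusted p = 0.00064), and FL was 2.2-fold above dCTD (adjusted p = 1.1e-18). Bcat2 was 4817 to 5491 with LacZ, 4701 to 4936 under FL and 4914 to 5305 under dCTD, and these ranges overlap. Its log2 fold change was -0.08 with FL (95% interval -0.17 to 0.01) and 0.00 with dCTD (-0.09 to 0.10), neither past the threshold. Per kilobase of exon, the Bcat1 level was 0.144 ± 0.0183 of the Bcat2 level with LacZ, 0.396 ± 0.0131 with FL and 0.169 ± 0.00082 with dCTD (SD, n = 3), so Bcat2 stayed the more abundant transcript in every library.

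BCKDH consists of a decarboxylase with subunits Bckdha and Bckdhb, the transacylase Dbt and a shared dehydrogenase, Dld. The kinase Bckdk switches it off by phosphorylation and the phosphatase Ppm1k switches it on. Dbt was 2656, 2689 and 2703 with LacZ, 4589, 4133 and 4359 with FL, and 3594, 3755 and 3581 with dCTD. The groups did not overlap, and Dbt rose by 0.70 ± 0.04 with FL and by 0.43 ± 0.04 with dCTD (log2, adjusted p = 6.8e-15 and 4.9e-09). Bckdha rose by 0.33 ± 0.04 with FL and 0.23 ± 0.05 with dCTD. Its counts of 3643 to 3934 with LacZ lay below 4652 to 4877 with FL and 4047 to 4753 with dCTD. Of its exon bases, 1171 of 1899 are shared with B3gnt8 on the opposite strand (mean 163 with LacZ, 125 with FL, 124 with dCTD), so its level is uncertain. Bckdhb was low, at 107 to 118 with LacZ, 113 to 125 under FL and 138 to 166 under dCTD. It rose with dCTD (0.43 ± 0.12, adjusted p = 0.00532) and did not pass with FL (0.13, 95% interval -0.13 to 0.38).

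Of this pair the phosphatase rose with both forms, and the kinase did not pass the test. Ppm1k was 795, 905 and 871 with LacZ, 1537, 1448 and 1431 with FL, and 1448, 1601 and 1456 with dCTD. Every library with either form was above every LacZ library, with log2 fold changes of 0.78 ± 0.06 and 0.80 ± 0.06 (adjusted p = 6.2e-13 and 6.4e-11). FL and dCTD overlapped, and the interval of their difference was -0.13 to 0.08. Bckdk was 4764 to 5177 with LacZ, 4630 to 4966 under FL and 4698 to 5103 under dCTD, all overlapping, with intervals of -0.14 to 0.03 and -0.10 to 0.08 for its fold changes. With scaling by the total count without Ppargc1a, Bckdk and Bcat2 were called lower with FL than with LacZ (-0.14 and -0.17, adjusted p = 0.00376 and 0.0017). The level of Bckdk per kilobase was 9.41 ± 0.537 times that of Ppm1k with LacZ, 5.27 ± 0.00349 with FL and 5.37 ± 0.509 with dCTD (SD, n = 3).

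**Figure D3:**
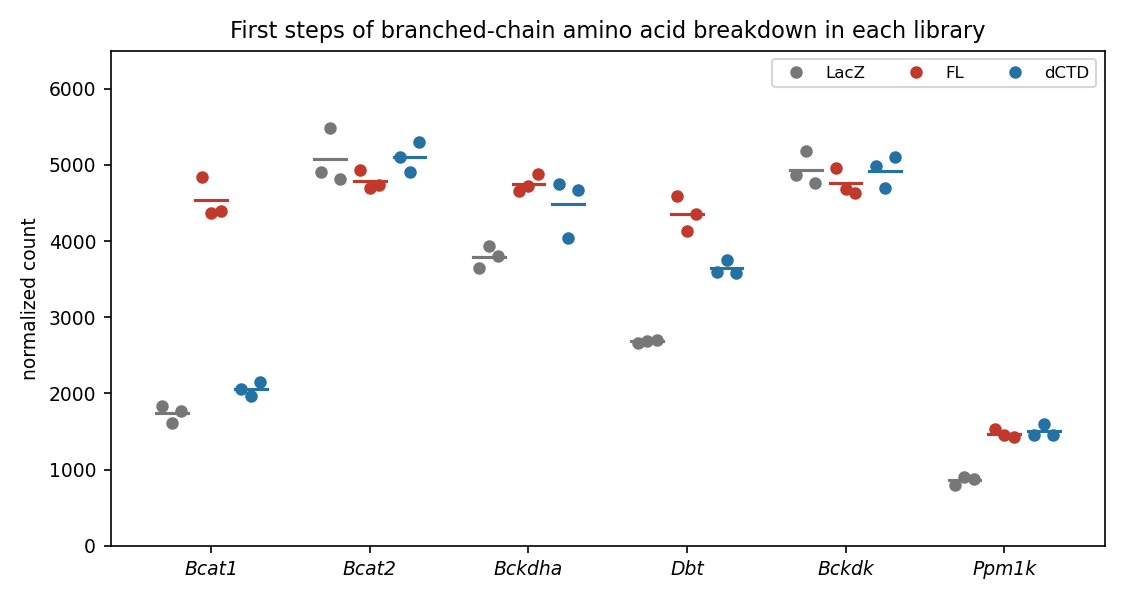
Normalized counts (y axis, from 0) in each library of the aminotransferases Bcat1 and Bcat2, the BCKDH subunits Bckdha and Dbt, the kinase Bckdk and the phosphatase Ppm1k, with a line at the mean of 3. Bcat1, Bckdha, Dbt and Ppm1k separate from LacZ, and the Bcat2 and Bckdk points overlap between groups.

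The leucine branch runs through isovaleryl-CoA dehydrogenase (Ivd), the biotin-dependent methylcrotonyl-CoA carboxylase (Mccc1 and Mccc2) and the hydratase Auh. With dCTD all 4 genes rose, and with FL 2 did. Of all tested genes, 23.1% rose with dCTD and 30.9% with FL, so the 2 of 4 with FL are near that background. Mccc1 was 3097, 3127 and 3036 with LacZ, 5210, 4834 and 5026 with FL, and 3786, 3883 and 3912 with dCTD, with FL highest and no overlap. Its partner Mccc2 was 1603, 1677 and 1609 with LacZ, 1707, 1783 and 1583 with FL, and 1937, 1884 and 2043 with dCTD. For the subunits of this 1 enzyme the fold change with FL was thus 0.70 (95% interval 0.62 to 0.79) for Mccc1 and 0.05 (-0.05 to 0.16) for Mccc2, while with dCTD it was 0.31 and 0.25. Auh was 2101 to 2130 with LacZ, 3206 to 3403 under FL and 3592 to 3744 under dCTD. It rose by 0.64 ± 0.04 and 0.79 ± 0.04. Ivd was 8645 to 8772, 8935 to 9438 and 10541 to 11017 in the same order. The Ivd libraries did not overlap, but the change passed only with dCTD (0.29 ± 0.04, adjusted p = 5.7e-07) and not with FL (0.08, adjusted p = 0.0567). The FL change of Ivd was near the threshold. It passed without FL replicate 2 (0.034) and in 1 fit over all 9 libraries (0.0495), and was -0.00 with scaling by the total count without Ppargc1a.

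In the valine branch the middle enzymes changed most. Hibch, the hydrolase that releases 3-hydroxyisobutyrate (ENSMUSG00000041426, chromosome 1, 52844929 to 52920986), was 3829, 4079 and 4146 with LacZ, 12842, 11135 and 11868 with FL, and 7243, 7446 and 7429 with dCTD. Hibadh, which oxidizes that acid (ENSMUSG00000029776, chromosome 6, 52546228 to 52640389), was 7450, 7687 and 7912 with LacZ, 20880, 19347 and 19915 with FL, and 14506, 14956 and 14742 with dCTD. Both genes had LacZ lowest, dCTD between and FL highest, with no overlap. Hibch rose 2.97-fold with FL and 1.83-fold with dCTD (1.57 ± 0.05 and 0.87 ± 0.04 in log2), and Hibadh rose 2.61-fold and 1.91-fold (1.38 ± 0.04 and 0.93 ± 0.04). The flanking dehydrogenases moved less. Acad8, the isobutyryl-CoA dehydrogenase, was 3441 to 3616 with LacZ, 4101 to 4439 under FL and 4342 to 4612 under dCTD, and Aldh6a1, which ends the branch at propionyl-CoA, was 4179 to 4394, 4348 to 4603 and 4716 to 4882. Acad8 rose by 0.27 ± 0.04 and 0.32 ± 0.04, and Aldh6a1 passed with dCTD (0.15 ± 0.04, adjusted p = 0.00408) and not with FL (0.05, interval -0.03 to 0.14). Of the Aldh6a1 exon bases 1078 of 5784 are shared with Bbof1 on the opposite strand, whose mean was 246 with LacZ, 790 with FL and 304 with dCTD.

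The Hibadh promoter is shown because it holds both the NRF1 motif and the core motif AGGTCA, given here in capitals. The NRF1 match starts 66 bases before the start site, and the core motif lies within the 50 bases after it.
Hibadh, chr6:52640251-52640550, minus strand, GRCm38.p6: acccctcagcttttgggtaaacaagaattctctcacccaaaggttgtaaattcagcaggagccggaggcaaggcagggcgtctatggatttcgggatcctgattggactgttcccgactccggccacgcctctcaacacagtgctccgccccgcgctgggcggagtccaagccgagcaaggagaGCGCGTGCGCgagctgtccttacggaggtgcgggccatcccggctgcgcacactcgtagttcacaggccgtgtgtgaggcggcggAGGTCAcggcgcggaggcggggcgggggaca

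Of the isoleucine genes, Acadsb, the 2-methylbutyryl-CoA dehydrogenase, was 11351 to 11813 with LacZ, 12746 to 13266 under FL and 12107 to 12853 under dCTD, rising by 0.17 ± 0.04 and 0.12 ± 0.04. The dCTD call (adjusted p = 0.0153) was lost without dCTD replicate 1 (0.0948), dCTD replicate 2 (0.0536) or LacZ replicate 2 (0.0509). Hsd17b10, the next dehydrogenase of that branch and also a part of mitochondrial RNase P, was 5473 to 5846 with LacZ, 7723 to 8539 under FL and 6707 to 7501 under dCTD. It rose by 0.51 ± 0.04 and 0.29 ± 0.04 (adjusted p = 3.3e-12 and 7.7e-06), with FL above dCTD in all libraries.

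Valine and isoleucine carbon enters the citric acid cycle through propionyl-CoA. The carboxylase subunits Pcca and Pccb rose little, by 0.26 ± 0.04 and 0.17 ± 0.04 with FL and by 0.36 ± 0.04 and 0.12 ± 0.04 with dCTD. Pcca was 4673 to 4787 with LacZ, 5511 to 5817 under FL and 5892 to 6432 under dCTD, and Pccb was 4892 to 4955, 5360 to 5693 and 5284 to 5590. The Pccb call with dCTD (adjusted p = 0.0124) was lost without dCTD replicate 3 (0.0672). Mcee, the epimerase of methylmalonyl-CoA, changed most in this branch, with counts of 958, 1092 and 1002 with LacZ, 1875, 1734 and 1942 with FL, and 2191, 2147 and 2260 with dCTD. The dCTD libraries were highest, at 2.15-fold over LacZ, against 1.82-fold with FL (1.11 ± 0.05 and 0.86 ± 0.06 in log2). Mmaa and Mmab prepare the cobalamin cofactor of the mutase that follows. Mmaa was 2455 to 2606 with LacZ, 3408 to 3646 under FL and 3000 to 3126 under dCTD, and Mmab was 2658 to 2809, 2746 to 2863 and 3194 to 3350. Mmaa rose by 0.48 ± 0.04 with FL and 0.27 ± 0.04 with dCTD. Mmab rose with dCTD (0.27 ± 0.04, adjusted p = 1.6e-05) and did not pass with FL (0.06, interval -0.03 to 0.14). Mmaa has a second RefSeq start at chr8:79294687-79294986, whose window holds no match and is not shown. The Mmaa promoter below is shown because it holds 2 NRF1 matches, in capitals.
Mmaa, chr8:79294912-79295211, minus strand, GRCm38.p6: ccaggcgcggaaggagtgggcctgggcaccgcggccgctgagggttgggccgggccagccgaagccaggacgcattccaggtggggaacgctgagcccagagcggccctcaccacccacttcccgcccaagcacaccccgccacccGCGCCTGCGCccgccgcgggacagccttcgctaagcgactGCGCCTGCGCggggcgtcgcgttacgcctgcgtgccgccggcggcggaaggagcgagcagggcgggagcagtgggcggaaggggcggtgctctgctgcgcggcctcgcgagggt

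Among the 5 tested genes of the 31 that lie beside these routes the changes were small. Gcdh, the glutaryl-CoA dehydrogenase of lysine and tryptophan breakdown, was 2939 to 3058 with LacZ, 3215 to 3532 under FL and 3806 to 4147 under dCTD, rising by 0.18 ± 0.04 and 0.39 ± 0.04. Dhtkd1, which acts just before it, was 649 to 710, 585 to 636 and 594 to 679, and neither change passed (-0.14 and -0.12, adjusted p = 0.0773 and 0.194). Aldh2, the mitochondrial aldehyde dehydrogenase that clears acetaldehyde, was the gene that fell. It was 19970, 21868 and 20625 with LacZ, 17569, 18526 and 18643 with FL, and 18235, 16482 and 17874 with dCTD. All libraries of both forms lay below LacZ, by 0.19 with FL and 0.26 with dCTD (log2 fold changes -0.19 ± 0.04 and -0.26 ± 0.04, adjusted p = 0.00012 and 3e-05). Abat, the GABA transaminase, was 290 to 307, 315 to 357 and 303 to 329, and Aldh9a1, an aldehyde dehydrogenase of carnitine synthesis, was 2378 to 2503, 2454 to 2522 and 2527 to 2598. Neither passed with either form, with intervals of -0.02 to 0.33 and -0.13 to 0.23 for Abat and -0.06 to 0.12 and -0.02 to 0.16 for Aldh9a1.

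Compared directly, the forms of PGC-1α split the catabolic genes both ways, as they did all tested genes. Of 30 genes, 9 (30%) were higher and 10 (33.3%) lower with FL than with dCTD, and 11 did not pass. Of all tested genes, 22.4% were higher and 17.8% lower. The share of higher genes is thus near that background, and that of lower genes is above it, a difference that was not tested. The median log2 difference of the 30 genes was -0.03, and that of all tested genes was -0.00. The 9 genes higher with FL were Bdh1, Bcat1, Oxct1, Hibch, Hibadh, Mccc1, Dbt, Hsd17b10 and Mmaa, with log2 differences from 1.80 down to 0.20. All 9 had also risen over LacZ with both forms. The 10 lower with FL were Bckdhb, Mcee, Ivd, Mmab, Mccc2, Gcdh, Acat1, Auh, Pcca and Aldh6a1, with differences from -0.32 to -0.10. All 10 had risen with dCTD, and 5 of them (Acat1, Auh, Gcdh, Mcee and Pcca) with FL too. The comparisons with LacZ use the same FL and dCTD libraries, so both overlaps are partly built in and add no separate evidence. The differences in this direction were smaller than the largest in the other. In each of the 10 genes the FL and dCTD libraries did not overlap, which adds little, since the call that picked them used the same libraries. Among them were Mmab (-0.22 ± 0.04, adjusted p = 4.6e-05), Mcee (-0.25 ± 0.05, 6.7e-05), Ivd (-0.22 ± 0.04, 1.2e-05) and Gcdh (-0.21 ± 0.04, 0.00014). The calls of Bckdhb (adjusted p = 0.0407), Aldh6a1 (0.0343) and Pcca (0.022) were weak. Bckdhb was lost without FL replicate 1, 2 or 3 or without dCTD replicate 1 or 3 (0.056 to 0.171), Aldh6a1 without FL replicate 2 or 3 or dCTD replicate 1 or 2 (0.0549 to 0.134), and Pcca without FL replicate 2 or 3 or dCTD replicate 3 (0.0565 to 0.134). Bcat2, which did not pass (-0.09, adjusted p = 0.0573), was called lower with FL in 6 of 16 alternatives, among them TMM scaling, edgeR and leaving out FL replicate 1 or dCTD replicate 2 (adjusted p = 0.000896 to 0.0483).

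**Figure D4:**
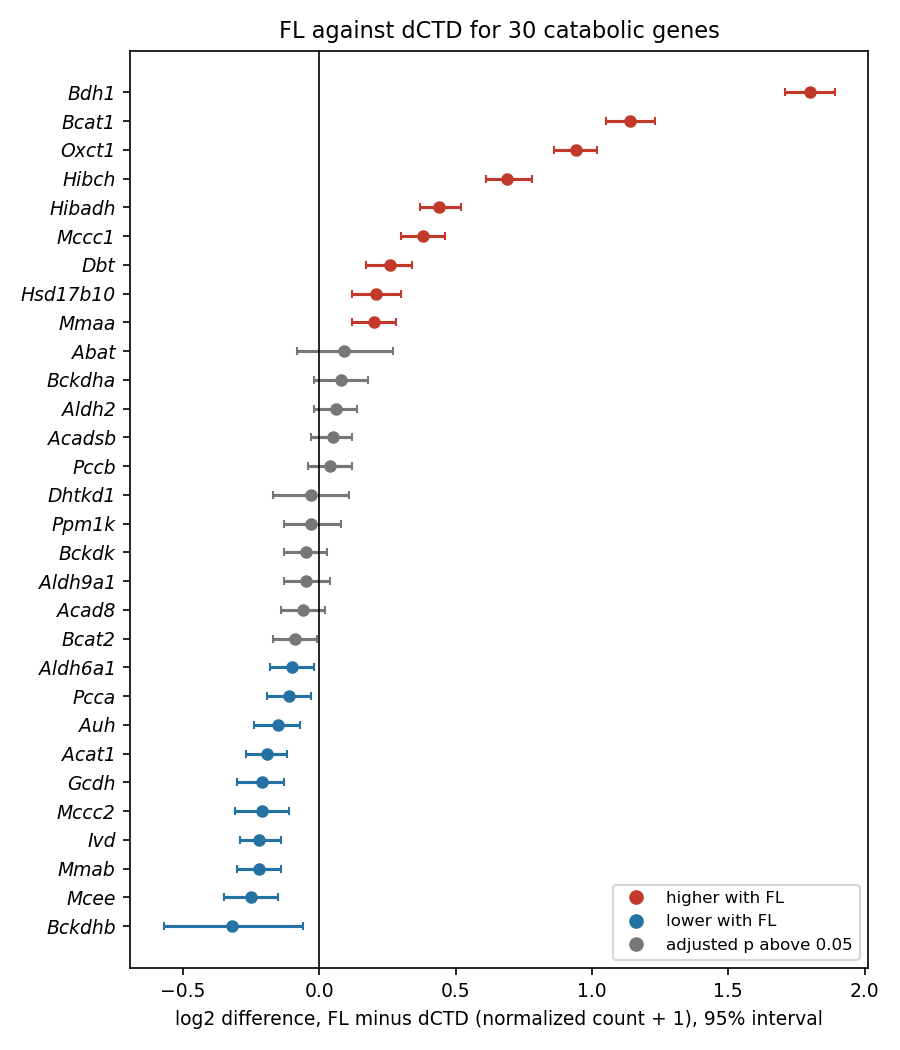
Log2 difference of FL minus dCTD (x axis, on normalized count + 1) for 30 genes in order of size, with 95% intervals for groups of 3. Bdh1, at 1.80, and Bcat1, at 1.14, lie farthest to the side of FL, and Bckdhb, at -0.32, farthest to the side of dCTD with the widest interval.

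Levels per kilobase of exon put the genes on 1 scale, using the union of GENCODE M21 exons, which may differ from the authors' annotation. With LacZ, Oxct1 was highest (6199 ± 181 normalized counts per kilobase, SD, n = 3), followed by Hsd17b10 (4380 ± 148) and Aldh2 (4062 ± 188). Abat (38.6 ± 1.07) and Bdh1 (42.2 ± 6.6) were lowest among the genes with reads in every library and lay within their spread of each other. With FL, Bdh1 moved from rank 29 to rank 4 of 31, at 3412 ± 213, and with dCTD to rank 18, at 979 ± 38.7. Summed over the 3 ketone genes, the mean level per kilobase was 7820 with LacZ, 37758 with FL and 20757 with dCTD. Most of each sum was Oxct1, at 6199, 31320 and 16315 in the same order. The sum over the 5 propionyl-CoA genes was 4909, 6384 and 6830, and that over the 4 leucine genes 2668, 3084 and 3379. Within BCKDH, Bckdhb (61.3 ± 3.61 with LacZ) was far below Dbt (801 ± 7.33) and Bckdha (1997 ± 76.8).

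**Figure D5:**
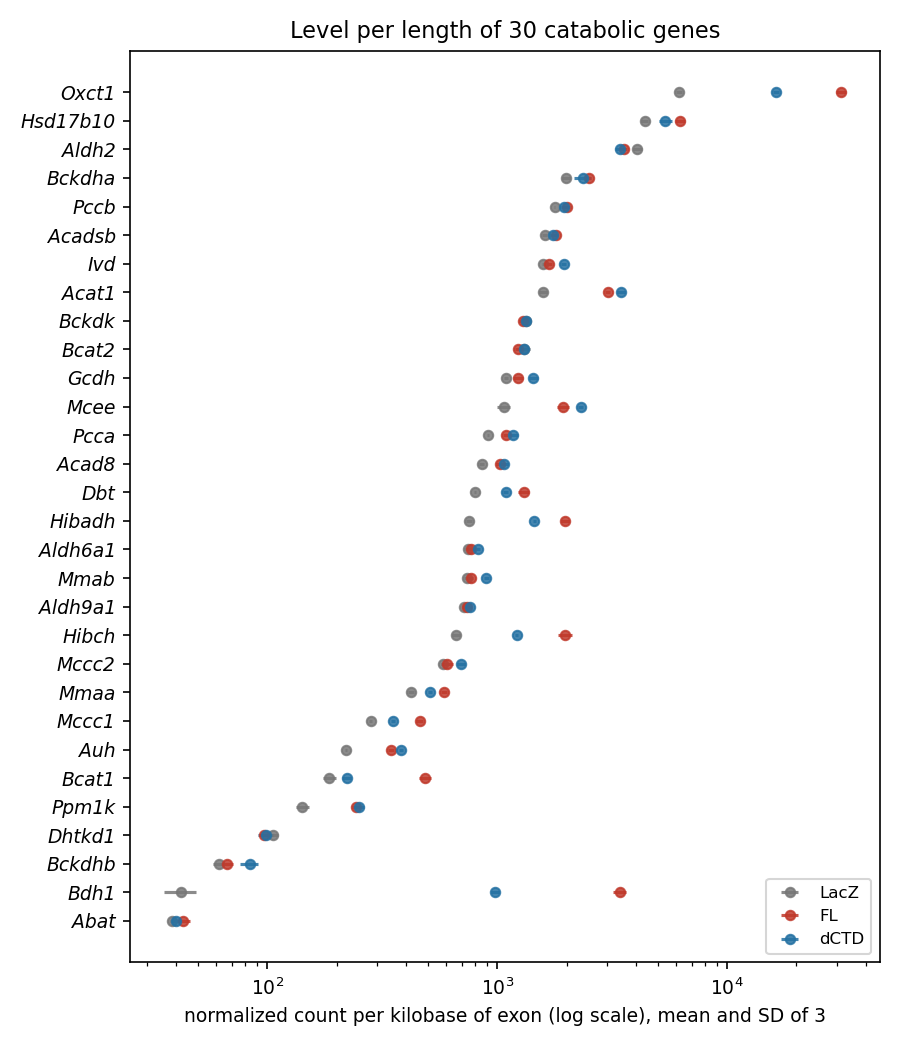
Normalized count per kilobase of exon (x axis, log scale) of 30 genes in order of their LacZ level, as mean and SD of 3 libraries; Aass, with 1 read in all, is left out. Bdh1 crosses most of the range, from 42.2 with LacZ to 3412 with FL.

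Other genes of these pathways, 43 listed with earlier results of these data known, were read beside them. Of 36 that could be tested, 23 rose and 4 fell with FL, 21 rose and 6 fell with dCTD, and 19 were higher and 4 lower with FL than with dCTD. As shares of the 36, 63.9% rose and 11.1% fell with FL, against 30.9% and 28.3% of all tested genes. With dCTD the shares were 58.3% and 16.7%, against 23.1% and 21.7%, and for FL against dCTD 52.8% and 11.1%, against 22.4% and 17.8%. All 7 enzymes shared with other pathways, among them Dld, rose with both forms, from Mmut, the methylmalonyl-CoA mutase (0.44 ± 0.04 with FL, 0.36 ± 0.04 with dCTD), to Hadhb, the thiolase of the trifunctional protein (1.76 ± 0.04 and 1.25 ± 0.04). Between the forms Hadha, its partner subunit, was higher with FL by 0.71 ± 0.04, and Acads, the short-chain acyl-CoA dehydrogenase, was lower (-0.24 ± 0.04). Of 5 tested uptake genes 3 rose and 1 fell with FL, and 2 rose and 2 fell with dCTD, which on so few genes is near the shares of all tested genes. Slc43a2, an amino acid transporter, rose by 0.80 ± 0.04 with FL and 0.34 ± 0.04 with dCTD, and its relative Slc43a1 fell with FL (-0.14 ± 0.06, adjusted p = 0.0494). Slc25a44, the mitochondrial carrier of branched-chain amino acids, was 4314 to 4699 with LacZ, 6971 to 7438 under FL and 4922 to 5160 under dCTD. It was higher with FL than with dCTD by 0.52 ± 0.04 (adjusted p = 9.7e-13). Slc7a5, a cell-surface leucine transporter, was also higher with FL than with dCTD (0.26 ± 0.04) and fell with dCTD over LacZ (-0.42 ± 0.08).

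Among 5 tested further ketone genes 2 rose and 1 fell with each form, near the shares of all tested genes (30.9% and 28.3% with FL, 23.1% and 21.7% with dCTD). Slc16a1, a transporter of lactate and ketone bodies, rose by 1.18 ± 0.04 with FL and 0.87 ± 0.04 with dCTD, and the cytosolic acetoacetyl-CoA synthetase Aacs fell (-0.16 ± 0.04 and -0.13 ± 0.05). Of 9 biotin and cobalamin genes 4 rose and 1 fell with FL and 4 rose and 2 fell with dCTD, on 9 genes also near those shares. Mmadhc, a cobalamin trafficking protein, rose by 0.48 ± 0.04 with FL, and Hlcs, which attaches biotin to the carboxylases, fell (-0.39 ± 0.05 with FL, -0.19 ± 0.05 with dCTD). Lmbrd1, the lysosomal cobalamin exporter, was higher with FL than with dCTD by 0.31 ± 0.04. On the lysine side 2 of 4 tested genes rose with each form and 1 fell with dCTD, a count too small to set apart from those shares. Pipox, the peroxisomal pipecolate oxidase, was 7.19 to 17.6 with LacZ, 593 to 739 under FL and 489 to 574 under dCTD, and Phykpl, a lyase of hydroxylysine breakdown, rose by 1.47 ± 0.06 with FL and 0.57 ± 0.07 with dCTD. Of 5 tested GABA and nitrogen genes 4 rose with each form, against 30.9% of all tested genes with FL and 23.1% with dCTD. The alanine transaminase Gpt rose by 1.80 ± 0.04 with FL and 0.72 ± 0.05 with dCTD, and glutamine synthetase, Glul, fell with FL (-0.32 ± 0.04). Klf15, a transcription factor known to drive branched-chain amino acid genes in muscle, was 49.6 to 65.3 with LacZ, 126 to 160 under FL and 47.3 to 67.6 under dCTD. It rose with FL (1.34 ± 0.15, adjusted p = 3.5e-09), and FL was above dCTD by 1.24 ± 0.16 (adjusted p = 1.2e-07), while dCTD and LacZ overlapped.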

How the data were processed

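Messenger RNA of 9 C2C12 libraries was sequenced after preparation with a stranded kit, per the labels' protocols. Per the submitters' processing notes, the tools were STAR 2.7.2b, Trim Galore 0.4.3.1, featureCounts 1.6.4, FastQC 0.72 and DESeq2 2.11.40.6 and the build was mm10. Whether counting used strand is not given in the sources used here. Of the 31 genes, 11 share exon bases with another gene in GENCODE M21 so their values carry that uncertainty.

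The authors deposited, per the file headers, a signal called counts for each library, in which the values behave as reads divided by 1 size factor per library. Whole reads were recovered for 100% of 317312 values above 0, within 0.001 reads. The LacZ reads were the same in both tables. The authors' log2 fold changes, standard errors, Wald scores and p-values stand in the deposited tables, per the file headers. In the authors' deposited table, at an adjusted p of 0.05, 19 of the 31 genes were higher and 1 lower with FL, and 24 and 1 with dCTD. Deposited starts count from 0 and were raised by 1. With that, all 31 genes had the GENCODE M21 coordinates.

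FL and dCTD were each compared with LacZ within their own table, and FL with dCTD on recovered reads of all 9 libraries brought to 1 scale by the median of ratios. The test was limma 3.58.1 in R 4.3.3 (trend, robust) on log2(value + 1) for all genes with a mean of at least 10, two-sided, with Benjamini-Hochberg adjustment over all tested genes and a threshold of 0.05. This scale understates changes of genes with low counts. Alternatives used edgeR 4.0.16 and DESeq2 1.42.0 on the recovered reads. For all genes edgeR (quasi-likelihood) called 5557 higher and 5433 lower with FL than with LacZ, 4267 and 3836 with dCTD, and 3934 and 3440 for FL against dCTD. The steps were tested on simulated data. The members and lists were chosen with earlier results of these data known. All 31 members are accounted for. Of each further pathway list the genes named are those with the highest and lowest fold change past the threshold for FL against LacZ and for FL against dCTD, except that some genes are not reported here. Dld, Cidec, Serpina1a, Cfd, Slc3a2 and the overlapping genes were named after their values were seen. Promoter sequences are RefSeq's, for GRCm38.p6. Protein sequences were not used here. The in vitro RNA-binding experiment was not analysed here.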

Additional observations from a re-analysis of the deposited data

Results flagged for a closer look

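Slc3a2, the heavy chain that pairs with the leucine transporter Slc7a5, moved in opposite directions with the forms of PGC-1α. It was 16652, 14156 and 14175 normalized counts with LacZ, 17058 to 17938 under FL and 12150 to 13605 under dCTD. The groups did not overlap, and LacZ replicate 1 lay closest to FL. It rose with FL (0.23 ± 0.05, adjusted p = 0.00173) and fell with dCTD (-0.23 ± 0.06, adjusted p = 0.00507), and FL exceeded dCTD by 0.45 ± 0.04 in log2 (limma, adjusted p = 6.5e-11, higher in all 3 libraries). The gene was chosen after its values were seen, and its calls were not followed through the alternatives below or with libraries left out.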

How the results depend on the processing

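Over 17 alternatives for each comparison with LacZ and 16 for FL against dCTD, no call of any of the 30 tested genes changed direction, and 499 of 510, 499 of 510 and 450 of 480 values kept their direction and their side of the threshold (FL and dCTD against LacZ, then FL against dCTD). Scaling by the total count without Ppargc1a moved the median of all genes to -0.094 for FL against LacZ and -0.069 for FL against dCTD. Under it 4 of the genes were called lower with FL than with LacZ, Bcat2 (-0.17), Bckdk (-0.14) and Dhtkd1 (-0.23) joining Aldh2, and the calls over all genes were 4585 higher and 7145 lower, against 5637 and 5162. For FL against dCTD the all-gene calls became 3134 higher and 5406 lower, against 4053 and 3228, and those of the pathway 9 and 14. Leaving out each library in turn gave 19 to 20 genes higher and 1 to 2 lower with FL, 23 to 24 higher and 1 lower with dCTD, and 9 to 10 higher and 7 to 10 lower for FL against dCTD. The added higher gene with FL was Ivd, without FL replicate 2 (0.11, adjusted p = 0.034). The second lower gene with FL was Bcat2, without LacZ replicate 1 (-0.10, adjusted p = 0.04). The 9 higher calls of FL against dCTD stood at 9 with edgeR, DESeq2 and TMM scaling, with 11, 9 and 11 lower. The call of Bckdhb for FL against dCTD was also lost with DESeq2 (adjusted p = 0.0913) and with no filter on low values (0.0757), and that of Aldh6a1 with no filter (0.0858).

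Libraries of the same replicate number did not deviate together (correlations of deviations from -0.078 to 0.078 over 9 pairs), so the numbers give no pairing. With the replicate block the counts were 19 higher and 1 lower for FL, 24 and 1 for dCTD, and 9 and 11 for FL against dCTD. Aass had 1 read in all, at 87090490 to 123446198 assigned reads per library, so it was close to absent and no change could be tested.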
